A study of Daphnia magna with 45 samples.

Results

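The 120 IDs described here lay on opposite sides of the control after 6 h in isoprenaline and after 6 h in the higher dose of propranolol. They were taken from the 19159 IDs of the deposited table. They were chosen by measured values, namely log2(CPM + 1) in the 8 libraries of these groups and their controls, where CPM counts an ID's reads per 1000000 reads of its library. For each ID with a mean of at least 5 CPM over all libraries, the mean of the 3 control libraries at 6 h was subtracted from the mean of the 3 isoprenaline libraries and from the mean of the 2 libraries of propranolol at 4 mg/L. An ID was kept when these differences had opposite signs and no isoprenaline library overlapped a propranolol library. The IDs were then ranked by the smaller of the absolute differences, and the first 120 were taken. The other 37 libraries entered only through the mean over all libraries. Below they are described as libraries that the rule did not use or that did not choose the IDs. Of 13400 IDs with a mean of at least 5 CPM, 2065 met the sign and overlap conditions, 1578 of them higher with isoprenaline and 487 lower. Of the 120 IDs, 62 were higher than the control with isoprenaline and lower with propranolol at 4 mg/L, both at 6 h. They are called isoprenaline-higher here. The other 58 had the reverse pattern and are called propranolol-higher. These names describe only the groups that the rule compared, not other doses or hours.

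Daphnia magna is a small freshwater crustacean, and RNA was taken from the whole body of females of the strain Xinb3. All animals were 5 days old, and 20 of them shared 35 mL of solution. Exposures were to isoprenaline (100 mg/L), to propranolol at a lower (1 mg/L) or a higher (4 mg/L) dose, or to a mixture of the lower dose of propranolol with the same dose of isoprenaline, beside controls. Libraries of controls were made at 0, 1, 3, 6 and 24 h, those of propranolol at 1 mg/L at 1, 3, 6 and 24 h, those of propranolol at 4 mg/L at 1, 6 and 24 h, and those of isoprenaline and of the mixture at 1 and 6 h. The 45 libraries formed 14 groups of 3, 1 group of 2 (propranolol at 4 mg/L, 6 h) and 1 group of 1 (control, 0 h). No library labelled replicate 3 of propranolol at 4 mg/L at 6 h was among the 45.

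Isoprenaline activates beta-adrenergic receptors, the cell-surface receptors through which adrenaline speeds and strengthens the vertebrate heartbeat, and propranolol blocks them. The Daphnia heart is a single muscular sac that is visible through the carapace, and drugs acting on vertebrate hearts are often tried on it. Arthropods use octopamine and tyramine in many roles that adrenaline and noradrenaline have in vertebrates. Which of the IDs, if any, belongs to such a pathway cannot be read from the files, since they do not pair IDs with gene names and none of the 19159 IDs matched an entry among 28335 RefSeq genes of the species. Markers of a tissue could therefore not be looked up either, and the labelled whole-body source was not checked against them. In RNA from whole bodies, fewer cells of a type and less RNA per cell cannot be told apart.

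Counted over the 19159 IDs, the 45 libraries held 13.5 to 43.7 M reads, with a median of 19.1 M. Reads outside these IDs are not included. The 8 libraries that chose the IDs held 15.9 to 21.2 M. At these depths 3 reads stood for 0.0686 to 0.222 CPM. The labels do not say whether replicates came from separate vessels, so each p-value reflects library-to-library spread alone, part or all of which may be technical.

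The differences that chose the IDs are given as a description, without a test. Among the 62 isoprenaline-higher IDs, isoprenaline minus control ran from 0.47 to 3.57 on the log2(CPM + 1) scale, with a median of 0.69. Propranolol at 4 mg/L minus control ran from -3.21 to -0.45 in the same IDs, with a median of -0.81. Among the 58 propranolol-higher IDs, isoprenaline minus control ran from -2.22 to -0.46, with a median of -0.72, and propranolol minus control ran from 0.45 to 2.37, with a median of 0.60. Over all 19159 IDs the medians were -0.04 for isoprenaline and -0.12 for propranolol, and with libraries scaled by the median log ratio to the other libraries they were -0.01 and 0.03. All 120 IDs kept both signs under that scaling. The first ID stood apart from the rest, with a smaller absolute difference of 3.21 against 2.14 for the second. At the other end the selection had no gap, since the last ID inside had a smaller absolute difference of 0.4542 and the first outside had 0.4531.

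**Figure D1:**
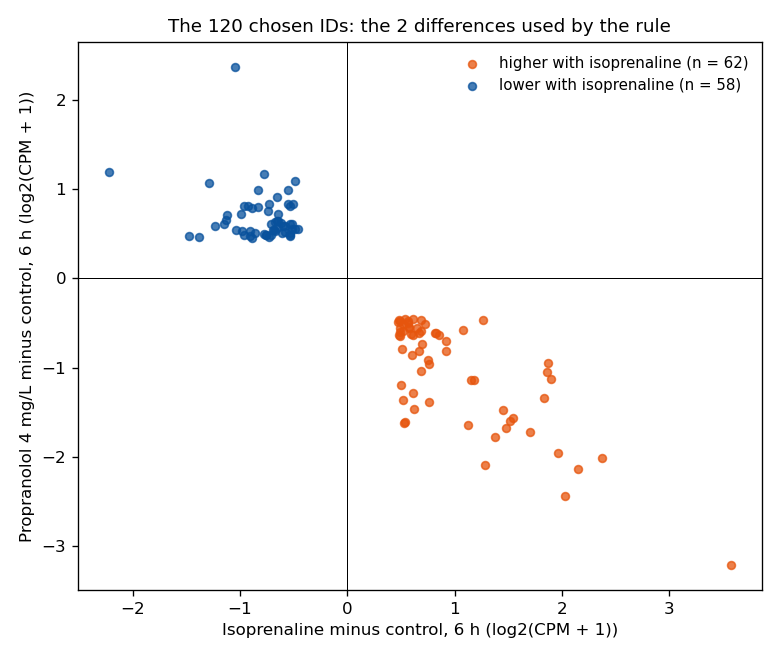
Each point is 1 of the 120 IDs, placed by isoprenaline minus control at 6 h (x axis) and propranolol 4 mg/L minus control at 6 h (y axis), both on the log2(CPM + 1) scale. The 62 isoprenaline-higher IDs lie at the lower right and the 58 propranolol-higher IDs at the upper left, and 1 ID at 3.57 and -3.21 lies far from the others.

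Opposite means did not usually come with groups that were apart from the control. Every isoprenaline library lay above every control library at 6 h in 3 of the 62 isoprenaline-higher IDs, against 15% of all IDs. Every propranolol 4 mg/L library lay below every control library in 26 of the 62, against 18.8% of all IDs. For the 58 propranolol-higher IDs, every isoprenaline library lay below every control library in 3, against 22.9% of all IDs. Every propranolol library lay above every control library in 17, against 5.45%. The controls were clear of both treated groups in 2 of the 62 and 1 of the 58, and overlapped both in 35 and 39. For these last counts the shares over all IDs were not computed. All counts in this paragraph come from the same libraries as the rule, so nothing is read from them about the IDs.

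Dapma7bEVm005116t1 ranked first and was isoprenaline-higher. At 6 h it stood at 392, 252 and 97.1 CPM in isoprenaline, at 143, 21.8 and 0.756 CPM in the controls, and at 1.49 and 0.502 CPM in propranolol at 4 mg/L. The controls therefore reached from the level of the propranolol libraries to that of the isoprenaline libraries. In propranolol at 1 mg/L it stood at 269.6, 399 and 752 CPM, among the highest levels at 6 h and far from the higher dose of the same drug. In the mixture it stood at 208, 18.1 and 297 CPM.

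Dapma7bEVm005791t1 ranked second and was also isoprenaline-higher. At 6 h it stood at 38.2, 25.7 and 9.02 CPM in isoprenaline, at 13.9, 5.02 and 0.331 CPM in the controls, and at 0.0514 and 0.188 CPM in propranolol at 4 mg/L. The propranolol values correspond to at most 3 reads in a library. Propranolol at 1 mg/L gave 23.6, 38.0 and 65.6 CPM and the mixture 22.4, 3.2 and 28.2 CPM. The same libraries were high and low as for the first ID.

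Dapma7bEVm003461t1 was the first of the propranolol-higher IDs. At 6 h it stood at 48.8, 74.1 and 0.174 CPM in isoprenaline, at 68.7, 65.3 and 95.3 CPM in the controls, and at 80.5 and 371 CPM in propranolol at 4 mg/L. Isoprenaline replicate 3, with 3 reads, was far below its group, and propranolol replicate 2 was far above the other. The other isoprenaline libraries were close to the controls.

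Dapma7bEVm028411t1, the second of the propranolol-higher IDs, stood at 75.3, 133 and 3.12 CPM in isoprenaline at 6 h, at 99.4, 66.8 and 89.7 CPM in the controls, and at 138 and 228 CPM in propranolol at 4 mg/L. Isoprenaline replicate 3 was again the lowest library. Both propranolol libraries were above all 3 controls.

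**Figure D2:**
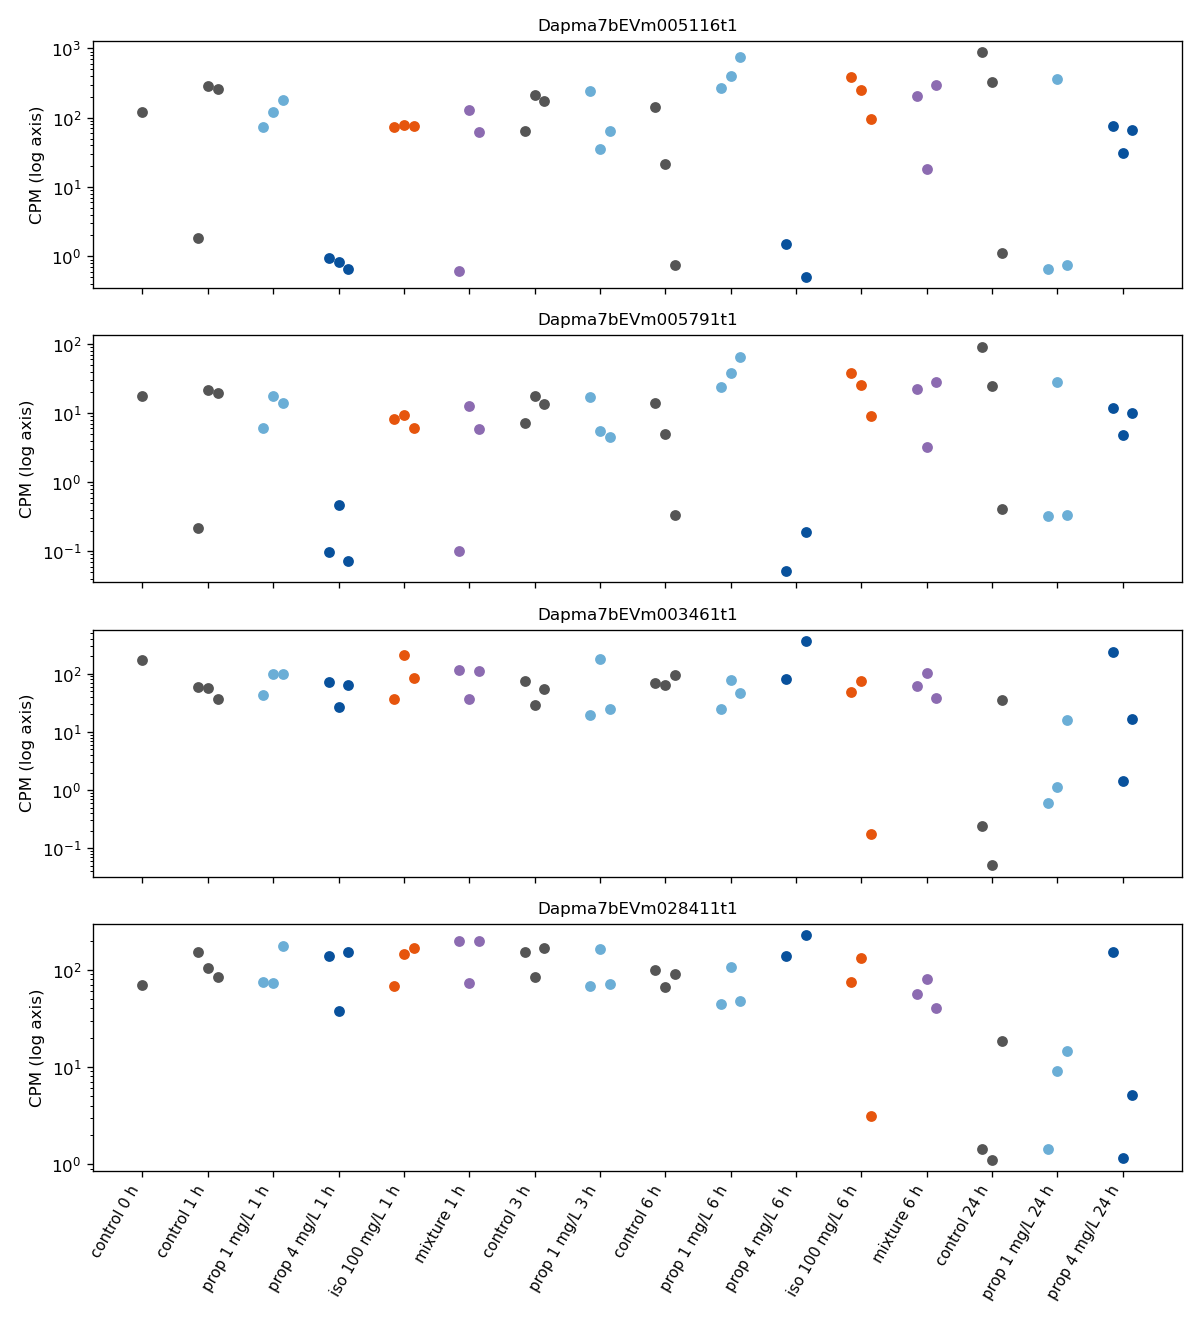
CPM (log axis) of the 4 IDs named by rank, in every library, by exposure and hour, with each point 1 library. Dapma7bEVm005116t1 and Dapma7bEVm005791t1 take either high or very low values, and Dapma7bEVm003461t1 and Dapma7bEVm028411t1 have their lowest 6 h point in isoprenaline replicate 3 (0.174 and 3.12 CPM).

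Single libraries carried much of the pattern at 6 h. Isoprenaline replicate 3 was the lowest of its group in 55 of the 58 propranolol-higher IDs. The range within the isoprenaline group had a median of 1.54 in these IDs and of 0.27 over all IDs with a mean of at least 5 CPM. Without that library the median of isoprenaline minus control was -0.22 in place of -0.72, and 45 of 58 IDs kept its sign. Repeating the selection without that library chose 10 of the 58 again. Propranolol 4 mg/L replicate 2 was the higher library of its pair in 56 of the 58, and without it the median of propranolol minus control was 0.26 in place of 0.60. Without replicate 1 that median was 1.01.

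Among the isoprenaline-higher IDs the control libraries differed most. Control replicate 1 was the highest of its group in 52 of 62 and replicate 3 the lowest in 39, and the range within the control group had a median of 1.68, against 0.60 over all IDs with a mean of at least 5 CPM. Without control replicate 1 the median of propranolol minus control was -0.44 in place of -0.81 and that of isoprenaline minus control was 1.06 in place of 0.69. For the propranolol-higher IDs, leaving out the same control moved the median of propranolol minus control from 0.60 to 0.35. The part of these libraries in the opposed pattern beyond these values was not tested.

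The lower dose of propranolol did not lie with the higher dose. For the 62 isoprenaline-higher IDs, the mean at 1 mg/L was above the mean at 4 mg/L in 62, above the control in 56 and above isoprenaline in 45. Its median distance was 1.33 above the control and 0.49 above isoprenaline on the log2(CPM + 1) scale, where all IDs with a mean of at least 5 CPM had medians of -0.02 and -0.005. Had the lower dose been the reference in place of the control, 17 of the 62 would have had opposite signs for isoprenaline and propranolol at 4 mg/L. For the 58 propranolol-higher IDs, the mean at 1 mg/L was between isoprenaline and propranolol at 4 mg/L in 57, and below the control in 55. Its median distance from the control was -0.35. These counts and distances share libraries with the rule and carry no test.

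The mixture lay between isoprenaline and propranolol at 4 mg/L in 60 of the 62 isoprenaline-higher IDs, and in 57 of the 58 propranolol-higher IDs. The rule chose IDs in which these groups were far apart, so a position between them is favoured by the choice. The counts and distances given here share libraries with the rule and carry no test. All IDs with a mean of at least 5 CPM had median distances of 0.06 from the control and 0.05 from isoprenaline. In the isoprenaline-higher IDs it was above the control in 59, with a median distance of 0.48 above the control and -0.40 from isoprenaline. In the propranolol-higher IDs it was below the control in 47, with a median distance of -0.18 from the control and 0.61 from isoprenaline. Mixture replicate 2 was the lowest of its group in 47 of the 62 isoprenaline-higher IDs and the highest in 52 of the 58 propranolol-higher IDs.

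Each library can be placed by its median over a list, after the mean of all 45 libraries was subtracted from each ID on the log2(CPM + 1) scale. At 6 h the isoprenaline-higher IDs had library medians of 0.65, 0.45 and 0.09 in isoprenaline, 0.53, -0.67 and -1.02 in the controls, and -1.22 and -1.46 in propranolol at 4 mg/L. They had 0.54, 0.70 and 1.12 in propranolol at 1 mg/L, and 0.46, -0.48 and 0.45 in the mixture. The controls overlapped isoprenaline and lay above both libraries of the higher dose. The lower dose overlapped isoprenaline and reached above it.

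The propranolol-higher IDs had library medians at 6 h of 0.60, 0.58 and -0.96 in isoprenaline, 0.13, 1.07 and 0.84 in the controls, and 1.03 and 1.78 in propranolol at 4 mg/L. They had -0.31, 1.25 and 0.07 in propranolol at 1 mg/L, and 0.39, 0.86 and 0.27 in the mixture. At 24 h they were far lower, at -2.29, -2.06 and -1.50 in the controls and at -1.74, -1.28 and -1.03 in propranolol at 1 mg/L. In propranolol at 4 mg/L at 24 h they were at 1.40, -2.96 and -2.58, so replicate 1 was high and the other libraries were below every control.

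**Figure D3:**
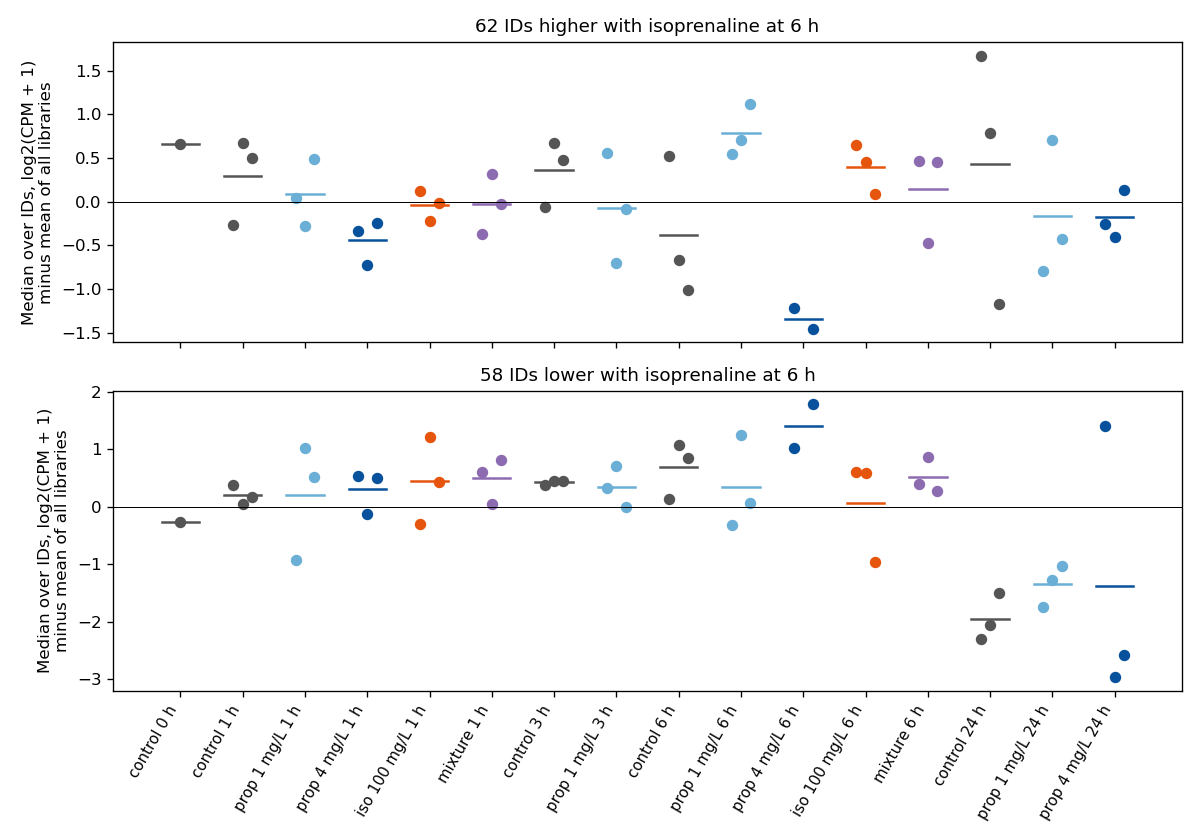
Median over the 62 isoprenaline-higher IDs (top) and the 58 propranolol-higher IDs (bottom) in every library, on the log2(CPM + 1) scale with each ID's mean over the 45 libraries subtracted; points are libraries and lines are group means. The top panel is lowest in propranolol 4 mg/L at 6 h (-1.22 and -1.46), and the bottom panel is lowest at 24 h except for propranolol 4 mg/L replicate 1 at 1.40.

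The first ID was either low or high with nothing between. It stood at 0.502 to 1.82 CPM in 11 libraries and at 18.1 to 875 CPM in 34. The 11 low libraries held 8 to 33 reads of it, and 13.6 to 29.3 M reads over all IDs. They comprised 5 of 8 libraries of propranolol at 4 mg/L (all 3 at 1 h and both at 6 h), 3 of 13 controls (replicate 1 at 1 h, replicate 3 at 6 h and replicate 3 at 24 h), 2 of 12 libraries of propranolol at 1 mg/L (replicates 1 and 3 at 24 h), 1 of 6 of the mixture (replicate 1 at 1 h) and 0 of 6 of isoprenaline. Of these 11, 8 were not among the libraries that chose the ID. In propranolol at 4 mg/L at 24 h it was at 76.2, 30.7 and 65.7 CPM.

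A group of isoprenaline-higher IDs varied together with the first. Over the 37 libraries that the rule did not use, 24 of the other IDs with a mean of at least 5 CPM had a Pearson correlation above 0.8 with Dapma7bEVm005116t1, and 23 of those were isoprenaline-higher and 0 propranolol-higher. The first ID and these 23 are called the co-varying 24 here. With thresholds of 0.7 and 0.9 the counts were 28 of 49 and 15 of 15, and with the group means taken out of each library the count was 25 of 35. The libraries share exposures and times, so these correlations are a description over 37 libraries. The median correlation between pairs was 0.92 within the co-varying 24 and 0.22 within the other 38 isoprenaline-higher IDs. The 24 and the 38 were split by correlation over the same 37 libraries, so this contrast follows from the split. The median was 0.82 within the propranolol-higher IDs, -0.07 between isoprenaline-higher and propranolol-higher IDs, and 0.04 among all IDs with a mean of at least 5 CPM. In 14 of the co-varying 24, with the first ID itself counted, the 11 lowest libraries were the 11 low libraries of the first ID. Only 8 of these 11 were outside the rule, so that count is partly set by the choice of the IDs.

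The propranolol-higher IDs were part of a larger set. Dapma7bEVm028411t1 had a correlation above 0.8 with 443 IDs over the same 37 libraries, of which 36 were propranolol-higher and 0 isoprenaline-higher. Dapma7bEVm003461t1 had 261 such IDs, 23 of them propranolol-higher. For Dapma7bEVm005791t1 there were 30, of which 24 were isoprenaline-higher. The 37 libraries include those at 24 h, so differences between groups enter these counts. With the group means taken out of each library, Dapma7bEVm028411t1 had 204 such IDs, 23 of them propranolol-higher. Dapma7bEVm003461t1 then had 165, with 15 propranolol-higher, and Dapma7bEVm005791t1 had 39, with 26 isoprenaline-higher.

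**Figure D4:**
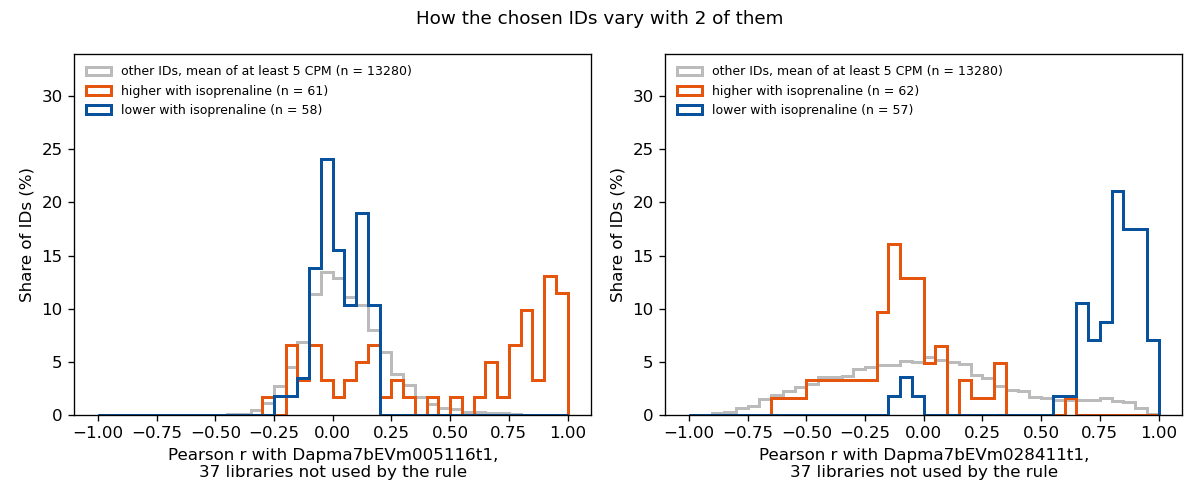
Share of IDs (y axis, percent) by Pearson correlation with Dapma7bEVm005116t1 (left) or Dapma7bEVm028411t1 (right) over the 37 libraries the rule did not use, for isoprenaline-higher IDs, propranolol-higher IDs and all other IDs with a mean of at least 5 CPM. The left panel has isoprenaline-higher IDs near 0 and near 1, and the right panel has most propranolol-higher IDs above 0.8 beside a long tail of other IDs.

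The remaining comparisons rest on libraries that entered the choice only through the mean of at least 5 CPM. Shares of all IDs include those with a mean under 5 CPM. The same libraries helped to find the co-varying 24, so splits by that group carry no test. The comparisons were fitted with limma over all 19159 IDs and all 16 groups, with Benjamini-Hochberg adjustment within each comparison. An ID was called at an adjusted p under 0.05. In these comparisons, the counts of members are to be read against the share of all IDs. Members that vary together are not independent, so a count of them can repeat the same pattern of the same libraries. Only IDs that passed are said to have risen or fallen.

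Isoprenaline against propranolol at 4 mg/L at 1 h repeats the rule's contrast at an earlier time. Dapma7bEVm005116t1 stood at 74.2, 79.1 and 75.3 CPM in isoprenaline at 1 h and at 0.941, 0.837 and 0.660 CPM in propranolol at 4 mg/L. The groups were far apart, and the pooled reads gave a ratio of 91.2 (95% exact interval 67.8 to 125.6, counting error only). Dapma7bEVm005791t1 stood at 8.21, 9.26 and 6.14 CPM against 0.0991, 0.471 and 0.0733 CPM, a ratio of 33.7 (19.1 to 65.7). The control libraries at 1 h were at 1.82, 283 and 262 CPM for the first ID and at 0.220, 21.5 and 19.7 CPM for the second, so control replicate 1 was low like the propranolol libraries.

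Over the 62 isoprenaline-higher IDs, 51 were higher in isoprenaline than in propranolol at 4 mg/L at 1 h, with a median of 0.39, where 47.8% of all IDs with a mean of at least 5 CPM were higher. Every isoprenaline library lay above every propranolol library in 26 of the 62, against 1.2% of all IDs. Of these 26, 23 were among the co-varying 24, so they are not 26 independent cases. None of the 120 IDs was called by limma or by edgeR, and 0% of all IDs were called by limma. At an unadjusted p under 0.05 limma gave 8 and edgeR 15 of the 120, against 0.209% of all IDs by limma and 0.334% by edgeR. All of these 8 and 15 were among the co-varying 24. For Dapma7bEVm005116t1 the difference was 5.41 (SE 1.95), with an adjusted p of 1 in limma and of 1 in edgeR.

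A fit of only these 2 groups, where the spread of the other groups does not enter, called Dapma7bEVm005116t1 with an adjusted p of 0.000496 in limma. Same-numbered libraries of these groups deviated together, and with the replicate number as a block that ID was called with an adjusted p of 0.00743, as 1 of 1 called ID in all (0.00522% of all IDs). Over all alternatives run for this ID the adjusted p ran from 0.000496 to 1. In the block fit 31 of the 120 had an unadjusted p under 0.05, against 1.64% of all IDs, and 23 of the 31 were among the co-varying 24. The 58 propranolol-higher IDs did not show the opposite direction at 1 h. Of these, 38 were higher in isoprenaline, with a median of 0.22, which became -0.16 without isoprenaline replicate 2 and -0.04 without propranolol replicate 2.

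The co-varying 24 were higher in isoprenaline than in propranolol at 4 mg/L at 1 h in 24 of 24, with a median of 1.76, and 23 had groups that did not overlap. Of the other 38 isoprenaline-higher IDs, 27 were higher, with a median of 0.15, and 3 had groups that did not overlap. The libraries at 1 h were among the 37 used to find the co-varying 24, so these counts describe the group and carry no test.

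Both treatments were also compared with the 3 controls at 1 h, which the comparisons share. Propranolol at 4 mg/L was below the control in 57 of the 62 isoprenaline-higher IDs, with a median of -0.69, where 49.8% of all IDs with a mean of at least 5 CPM were lower. These 57 were the co-varying 24, with a median of -2.02, and 33 of the other 38, whose median was -0.39. Isoprenaline was below the control in 51 of the 62, with a median of -0.30, where 52.5% of all IDs with a mean of at least 5 CPM were lower. Leaving out control replicates 1, 2 and 3 in turn moved that median to -0.65, -0.11 and -0.12, and leaving out isoprenaline replicate 2 moved it to -0.18. In the 58 propranolol-higher IDs the medians were 0.08 for propranolol and 0.25 for isoprenaline. The former became -0.02 without control replicate 2 and -0.01 without propranolol replicate 1, and the latter became -0.10 without isoprenaline replicate 2, so neither kept its direction.

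For propranolol at 4 mg/L against control at 1 h, limma and edgeR called 0 of the 120, and 0.0104% of all IDs were called by limma. At an unadjusted p under 0.05 there were 14 by limma and 22 by edgeR, against 2.42% of all IDs by limma and 3.25% by edgeR. All 14 and 20 of the 22 were among the co-varying 24. For isoprenaline against control at 1 h both tools called 0 of the 120 and gave 0 at an unadjusted p under 0.05, where limma called 0.0157% of all IDs, and limma and edgeR gave 2.51% and 3.3% unadjusted.

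The mixture against propranolol at 1 mg/L shows isoprenaline in the presence of the lower dose. Its 6 h libraries entered the rule only through the mean over all libraries. At 6 h the first ID stood at 208, 18.1 and 297 CPM in the mixture and at 269.6, 399 and 752 CPM without isoprenaline, with overlapping groups. The difference was -2.03 (SE 1.95, adjusted p 0.789 in limma), opposite in sign to isoprenaline minus control. Over the 62 isoprenaline-higher IDs, 51 were lower in the mixture, with a median of -0.71, where 41.8% of all IDs with a mean of at least 5 CPM were lower. The median kept its sign when any of the 6 libraries was left out, and 8 to 15 IDs were then higher. All of the co-varying 24 were lower, with a median of -1.45, as were 27 of the other 38, with a median of -0.41. Every mixture library lay below every propranolol library in 11 of the 62, against 7.94% of all IDs.

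In the 58 propranolol-higher IDs, 39 were higher in the mixture at 6 h, with a median of 0.18, where 58.2% of all IDs with a mean of at least 5 CPM were higher. That median became -0.14 without replicate 1 of propranolol at 1 mg/L. Limma and edgeR called 0 of the 120 in this comparison, and 0.866% of all IDs were called by limma. At an unadjusted p under 0.05 each tool gave 6 of the 120, against 11.9% of all IDs by limma and 13.2% by edgeR.

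At 1 h the mixture against propranolol at 1 mg/L had no common direction in the isoprenaline-higher IDs. Of the 62, 30 were higher in the mixture, with a median of -0.04. The co-varying 24 were all lower, with a median of -0.97, and 30 of the other 38 were higher, with a median of 0.25. The first ID stood at 0.614, 131 and 61.8 CPM in the mixture and at 72.8, 119 and 179 CPM without isoprenaline, so mixture replicate 1 alone was low. Of the 58 propranolol-higher IDs, 49 were higher, with a median of 0.31, where 48.9% of all IDs with a mean of at least 5 CPM were higher. Without replicate 1 of propranolol at 1 mg/L, 20 of the 58 were higher and the median was -0.16. Limma and edgeR called 0 of the 120 and gave 3 and 1 at an unadjusted p under 0.05, where limma called 0.00522% of all IDs, and limma and edgeR gave 5.93% and 6.89% unadjusted. In a test of whether the difference changed between 1 h and 6 h, 0 of the 120 passed after adjustment in limma, against 0% of all IDs, and 6 had an unadjusted p under 0.05, against 3.83% of all IDs.

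**Figure D5:**
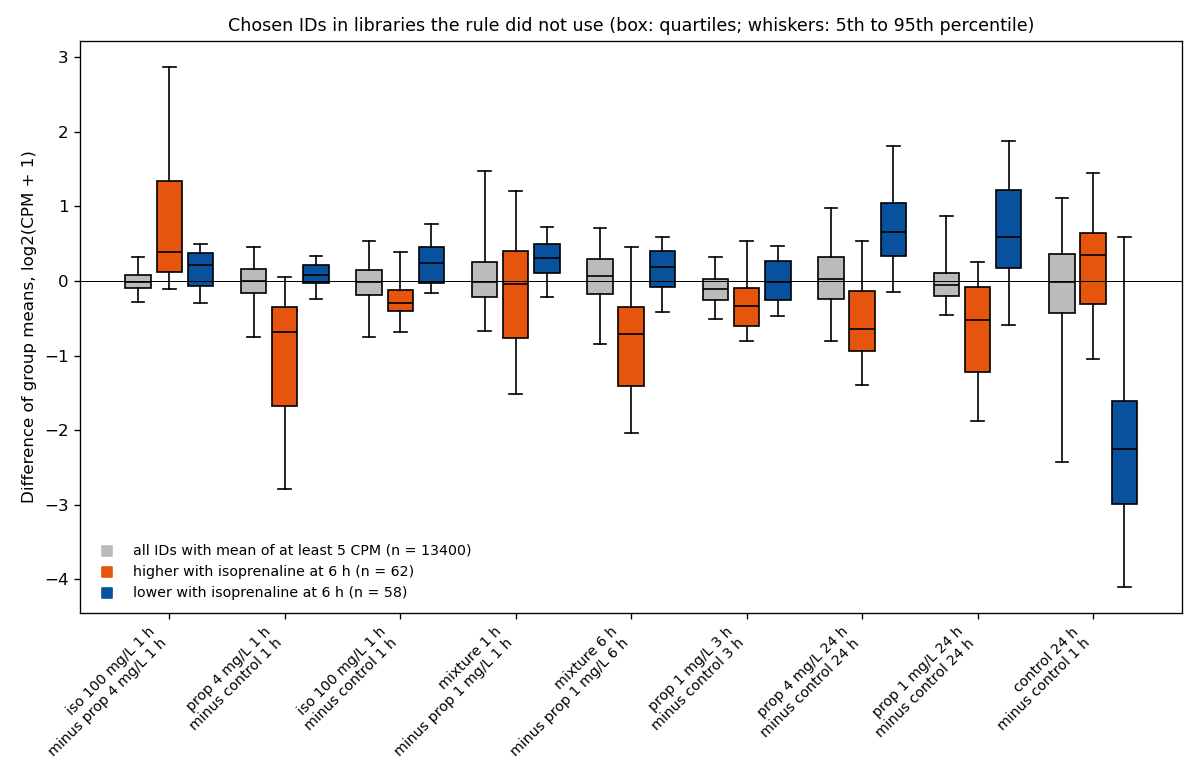
Differences of group means on the log2(CPM + 1) scale in the 9 comparisons whose libraries did not choose the IDs, for all 13400 IDs with a mean of at least 5 CPM, the 62 isoprenaline-higher IDs and the 58 propranolol-higher IDs; boxes span the quartiles and whiskers the 5th to 95th percentiles. Isoprenaline-higher IDs have a median of 0.39 for isoprenaline minus propranolol 4 mg/L at 1 h and of -0.71 for the mixture minus propranolol 1 mg/L at 6 h, and propranolol-higher IDs have a median of -2.25 for control 24 h minus 1 h.

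The controls were also compared with themselves between 1 h and 24 h. Dapma7bEVm028411t1 stood at 153, 105 and 84.0 CPM in the controls at 1 h and at 1.41, 1.11 and 18.6 CPM at 24 h. The groups did not overlap, and the ID fell by 4.59 (SE 1.09, adjusted p 0.00597 in limma and 0.031 in edgeR). Dapma7bEVm003461t1 stood at 58.8, 57.3 and 37.2 CPM at 1 h and at 0.246, 0.0506 and 35.7 CPM at 24 h, a difference of -3.81 that did not pass in limma (SE 1.37, adjusted p 0.0614).

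Of the 58 propranolol-higher IDs, 54 were lower at 24 h than at 1 h in the controls, with a median of -2.25. Among all IDs with a mean of at least 5 CPM, 50.6% were lower. In 49 of the 58 propranolol-higher IDs every 24 h library lay below every 1 h library, against 17.9% of all IDs. Limma called 34 of them lower and edgeR 32, against 5.28% of all IDs called lower by limma and 6.11% by edgeR. Among the 62 isoprenaline-higher IDs limma called 2 and edgeR 1, all of them higher. Of all 19159 IDs, limma called 1454 higher and edgeR 1085. In the 62, 41 were higher at 24 h, with a median of 0.35, where 49.4% of all IDs with a mean of at least 5 CPM were higher. That direction turned without control replicate 1 at 1 h (median -0.33) and without control replicate 1 at 24 h (median -0.48, with 12 of 62 higher). The 41 were the co-varying 24, with a median of 0.59, and 17 of the other 38, whose median was -0.14. Together limma called 36 of the 120, against 12.9% of all IDs, and gave 55 at an unadjusted p under 0.05, against 29% of all IDs. edgeR gave 52 unadjusted, against 27.9%. The count of 36 became 7 without control replicate 1 at 1 h, 21 without replicate 3 at 1 h, 16 without replicate 1 at 24 h and 22 without replicate 3 at 24 h.

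In the controls the propranolol-higher IDs had median distances from 1 h of 0.19 at 3 h, 0.57 at 6 h and -2.25 at 24 h. The isoprenaline-higher IDs had 0.14, -0.72 and 0.35, and all IDs with a mean of at least 5 CPM had 0.07, 0.01 and -0.01.

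At 24 h propranolol at 4 mg/L was compared with the control. Of the 58 propranolol-higher IDs, 51 were higher in propranolol, with a median of 0.65, where 52.8% of all IDs with a mean of at least 5 CPM were higher. This rested on replicate 1, without which 10 of the 58 were higher and the median was -0.72. For Dapma7bEVm028411t1 the propranolol libraries stood at 153, 1.17 and 5.11 CPM against 1.41, 1.11 and 18.6 CPM in the controls, so only replicate 1 was above the controls. Of the 62 isoprenaline-higher IDs, 50 were lower in propranolol, with a median of -0.64, which became 0.02 without control replicate 1. Among all IDs with a mean of at least 5 CPM, 47.2% were lower. The 50 were the co-varying 24, with a median of -0.93, and 26 of the other 38, whose median was -0.26.

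A single member, the propranolol-higher ID Dapma7bEVm023994t1, was called in limma for propranolol at 4 mg/L against control at 24 h, and it was chosen for naming after its values were seen. It stood at 191.5, 72.7 and 65.2 CPM in propranolol and at 17.1, 20.8 and 20.1 CPM in the controls, with no overlap. The ID rose by 2.27 (SE 0.57, adjusted p 0.0334 in limma and 0.0187 in edgeR). It passed in 2 of 6 fits that left out a library, where the adjusted p ran from 0.0212 to 0.271, and it did not pass in a fit of only the 2 groups (adjusted p 0.264). Limma called 1.61% of all IDs in this comparison and gave 15.5% unadjusted. Of the 120, limma gave 6 and edgeR 60 at an unadjusted p under 0.05, and edgeR called 5. Of the 60, 45 were propranolol-higher IDs and 15 isoprenaline-higher IDs. All 45 were higher in propranolol, as were all 5 called, which were propranolol-higher IDs. In limma that direction rested on propranolol replicate 1, and edgeR was not run without that library. edgeR called 3.02% of all IDs and gave 19% unadjusted.

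Propranolol at 1 mg/L was compared with the control at 3 h and 24 h. At 24 h, 48 of the 58 propranolol-higher IDs were higher in propranolol, with a median of 0.59, where 40.3% of all IDs with a mean of at least 5 CPM were higher, and in 20 every propranolol library lay above every control library, against 1.76% of all IDs. Leaving out any of the 6 libraries left 42 to 53 of the 58 higher. Of the 62 isoprenaline-higher IDs, 52 were lower, with a median of -0.53, which ran from -1.04 to -0.17 when a library was left out. Among all IDs with a mean of at least 5 CPM, 59.7% were lower. The 52 were the co-varying 24, with a median of -1.44, and 28 of the other 38, whose median was -0.20. Limma and edgeR called 0 of the 120 and gave 9 and 12 at an unadjusted p under 0.05, where limma called 0.0157% of all IDs, and limma and edgeR gave 2.97% and 2.89% unadjusted.

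At 3 h, 52 of the 62 isoprenaline-higher IDs were lower in propranolol at 1 mg/L, with a median of -0.33, where 70.4% of all IDs with a mean of at least 5 CPM were lower too. Without propranolol replicate 2 the median was -0.07. The 52 were the co-varying 24, with a median of -0.45, and 28 of the other 38, whose median was -0.27. The median of the 58 propranolol-higher IDs was -0.01. Limma and edgeR called 0 of the 120 and gave 0 at an unadjusted p under 0.05, where limma called 0% of all IDs, and limma and edgeR gave 4.82% and 3.08% unadjusted. Whether these differences changed with time was tested in limma, and 0 of the 120 passed after adjustment for propranolol at 4 mg/L between 24 h and 1 h or at 1 mg/L between 24 h and 3 h, against 0.00522% of all IDs in each. Unadjusted, 1 of the 120 passed in the former, against 3.49% of all IDs, and 3 in the latter, against 2.69%.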

How the data were processed

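RNA sequencing of whole Daphnia magna was analysed from a deposited table of CPM, made by the authors with edgeR, HTSeq, Bowtie2 2.1.0 and Trim Galore 0.3.2, per the submitters' processing notes. The library kit for mRNA kept the strand, per the labels' protocols. Which genome build and annotation were used is not given in the sources used here. Every CPM value was a whole multiple of its library's smallest step, and dividing by that step gave a whole number of reads, within 0.01, for 862155 of 862155 values (100%). Libraries of the same group (43 pairs) differed by more than sampling noise, with a chi-square per degree of freedom of at least 17.4, and none was counted as a duplicate.

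Groups were read from the sample titles. The main test was limma 3.58.1 (R 4.3.3, trend and robust options) on log2(CPM + 1) with 16 group means and 29 residual degrees of freedom. It was checked on simulated reads with the same extra spread for every ID and no outlying libraries. That check therefore does not cover IDs that are very low or high in single libraries. The pseudocount of 1 understates changes of low IDs. edgeR 4.0.16 (quasi-likelihood) was run on the recovered reads. The members, lists and tests were chosen with earlier results of these data known. The IDs named were the first 2 of each list by the rule's rank.

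Replicate numbers come from the titles. Same-numbered libraries of isoprenaline and propranolol 4 mg/L at 1 h had deviations from their group means that correlated at 0.79 to 0.87. These correlations were taken over IDs with a mean of at least 5 CPM. Those of propranolol 1 mg/L and control at 3 h correlated at 0.22 to 0.69. The best match had the same number for 6 of 6 libraries at 1 h and 4 of 6 at 3 h. In both comparisons these numbers were taken to pair the libraries, but the labels do not say what the numbers mark. In the other 7 comparisons at least 1 pair was at or below 0.1. Other alternatives were a pseudocount of 0.25, a mean of at least 5 CPM, median log ratio scaling, only the groups compared, and leaving out each library. Exact 95% intervals and the 3-read floor cover counting error only, since amplified reads are not independent molecules.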

Additional observations from a re-analysis of the deposited data

How the results depend on the processing

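The list of 120 depended on the libraries and settings of its rule. Of the 120, 113 were chosen again with a pseudocount of 0.25, 95 with a minimum mean of 1 CPM, 66 with a minimum of 20 CPM, 77 with median log ratio scaling and 33 with propranolol 1 mg/L at 6 h as the reference, and 16 to 89 when a library was left out (16 without propranolol 4 mg/L replicate 1). Of the IDs correlated with the first ID, 15 were members at a threshold of 0.9, against 23 at 0.8. The cause of these changes was not tested. The other correlation thresholds and the block in a fit of only the groups compared were added after seeing the data.

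Members called for isoprenaline against propranolol 4 mg/L at 1 h numbered 1 with only the groups compared and 1 with the replicate block added to that fit, against 0 in the shared fit, with or without the replicate block. The replicate block in the shared fit changed no other count of member calls. For propranolol 4 mg/L against control at 24 h the count of 1 became 0 with only the groups compared, 5 with edgeR and 0 to 3 with a library left out. For control at 24 h against 1 h the count of 36 became 7 to 32 with a library left out. In the other comparisons the count was 0 in every alternative run.

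Some named IDs changed sign when a library was left out. Dapma7bEVm028411t1 ran from -0.34 to 0.30 for the mixture against propranolol 1 mg/L at 6 h, from -0.30 to 0.73 for isoprenaline against propranolol 4 mg/L at 1 h, and from -0.35 to 2.73 for propranolol 4 mg/L against control at 24 h. In that last comparison Dapma7bEVm005116t1 ran from -3.30 to 1.05 and Dapma7bEVm005791t1 from -2.36 to 0.66. limma and edgeR differed in sign for isoprenaline against control at 1 h in Dapma7bEVm005116t1 (0.38 and -1.22) and Dapma7bEVm005791t1 (0.08 and -0.78). They also differed for propranolol 1 mg/L against control in Dapma7bEVm003461t1, at 3 h (-0.15 and 0.59) and 24 h (0.10 and -1.005). Depth limits Dapma7bEVm005791t1, which had at most 3 reads in each propranolol 4 mg/L library at 6 h.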
